A study of Mus musculus with 6 samples.

Results

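The genes described here encode the conjugating enzymes of mouse liver: glutathione transferases (GST), UDP-glucuronosyltransferases (UGT) and cytosolic sulphotransferases (SULT). They were the rows of the deposited gene table whose symbols begin with a class letter and digit of these families, leaving out pseudogene symbols, which gave 50 of 15092 genes: 22 GST, 19 UGT and 9 SULT genes. RNA from liver of C57BL/6J mice, for which the labels name hepatocyte as the cell type, was sequenced in 3 libraries of wild-type (WT) mice and 3 libraries labelled CRY1 KO (KO), a knockout of the circadian repressor gene Cry1. All 6 titles also carry the letters NC, which stay unexplained. The labels state no treatment, age, sex or time of day and do not say how the knockout was made. Whether each replicate is a different mouse is not stated, and the p-values reflect only how far these libraries spread, which could be technical.

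Conjugation is the phase II of detoxification: a hydrophilic group is joined to a drug, steroid, bile pigment or reactive metabolite so that it can be carried out of the cell. GST enzymes add glutathione, UGT enzymes add glucuronic acid or, for the UGT3A proteins, other sugars, and SULT enzymes add sulphate. Liver is a main site of all 3 reactions, and many of these genes are known targets of the nuclear receptors CAR and PXR, of the aryl hydrocarbon receptor (AHR) and of NRF2, the regulator of the antioxidant response. The UGT1A proteins come from a single locus in which each gene has a first exon of its own, while the remaining exons are shared by all of them.

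Promoters are shown for 5 genes on which the results turn. Ugt3a1, Sult1d1, Ugt1a6a and Ugt1a7c stood higher in each library labelled CRY1 KO, and Ugt1a1, at the same locus as Ugt1a6a and Ugt1a7c, did not. Each sequence, from RefSeq on GRCm38.p6, runs 5′ to 3′ on the strand of the gene, from 250 bases before its start to 50 bases after. They lie at chr15:9279579-9279878 (+) for Ugt3a1, chr5:87568957-87569256 (-) for Sult1d1, chr1:88134559-88134858 (+) for Ugt1a6a, chr1:88094751-88095050 (+) for Ugt1a7c and chr1:88211709-88212008 (+) for Ugt1a1. Capitals mark every match, on either strand, to 6 motifs: the E-box CACGTG, the D-box TTANGTAA, the antioxidant response core TGACNNNGC, the nuclear receptor half-sites AGGTCA and AGTTCA, and the AHR core GCGTG.
Ugt3a1: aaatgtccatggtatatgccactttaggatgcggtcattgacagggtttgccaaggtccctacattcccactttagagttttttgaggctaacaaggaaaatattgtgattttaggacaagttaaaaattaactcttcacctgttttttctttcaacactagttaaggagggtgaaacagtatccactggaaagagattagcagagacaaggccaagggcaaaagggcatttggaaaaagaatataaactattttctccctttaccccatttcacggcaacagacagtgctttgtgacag
Sult1d1: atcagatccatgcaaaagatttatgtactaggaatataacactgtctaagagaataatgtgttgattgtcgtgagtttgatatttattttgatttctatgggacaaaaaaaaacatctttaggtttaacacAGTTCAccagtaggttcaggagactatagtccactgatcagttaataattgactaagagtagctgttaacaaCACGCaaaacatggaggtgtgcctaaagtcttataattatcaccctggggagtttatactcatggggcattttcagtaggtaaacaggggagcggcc
Ugt1a6a: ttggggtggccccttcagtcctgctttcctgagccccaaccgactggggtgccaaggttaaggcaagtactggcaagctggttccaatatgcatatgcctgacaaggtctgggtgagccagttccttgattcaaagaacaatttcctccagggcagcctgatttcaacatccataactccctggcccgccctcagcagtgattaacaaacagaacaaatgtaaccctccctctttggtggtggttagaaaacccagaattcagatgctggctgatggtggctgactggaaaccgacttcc
Ugt1a7c: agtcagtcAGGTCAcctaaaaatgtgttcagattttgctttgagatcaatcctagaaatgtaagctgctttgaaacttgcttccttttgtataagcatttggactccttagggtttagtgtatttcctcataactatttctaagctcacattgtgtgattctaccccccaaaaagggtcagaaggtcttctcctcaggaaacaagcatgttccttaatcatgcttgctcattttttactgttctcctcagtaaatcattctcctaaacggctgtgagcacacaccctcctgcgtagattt
Ugt1a1: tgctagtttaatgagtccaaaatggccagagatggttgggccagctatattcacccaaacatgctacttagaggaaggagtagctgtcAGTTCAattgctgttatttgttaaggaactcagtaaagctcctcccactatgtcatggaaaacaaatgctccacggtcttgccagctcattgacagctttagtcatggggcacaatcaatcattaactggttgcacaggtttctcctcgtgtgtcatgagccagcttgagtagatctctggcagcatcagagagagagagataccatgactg

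The half-site AGGTCA was found in the window of Ugt1a7c, 242 bases before the start, and AGTTCA in those of Sult1d1, 119 bases before it, and Ugt1a1, 162 bases before it. The window of Sult1d1 also held the AHR core, and those of Ugt3a1 and Ugt1a6a held none of the 6 motifs. Of the 50 genes 44 had 1 or more windows, 54 in all, beside 32851 windows of all genes. The E-box, to which the CLOCK and BMAL1 activators of the circadian clock bind, was in 0 of the 54 and in 7.15% of all windows. The D-box, bound by the PAR bZIP factors TEF, HLF and DBP, was in 3 of the 54 (Sult1a1, Ugt1a9 and Ugt2b1), or 5.56%, and in 2.32% of all windows. The antioxidant response core was in 5.56% (12.4% of all), AGGTCA in 22.2% (16.3%), AGTTCA in 13.0% (14.0%) and GCGTG in 20.4% (32.4%). AGGTCA read on the other strand can share bases with TGACNNNGC. These matches describe the letters in the windows only.

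Library totals ranged from 79708703 to 91316332 estimated counts. The 50 genes took between 1.05% and 1.17% of them. Cry1 itself had 413, 579 and 694 counts in WT 1, 2 and 3 and 561, 521 and 445 in KO 1, 2 and 3, a difference of -0.027 in log2 (SE 0.19, edgeR adjusted p = 0.954, 95% interval by limma -0.45 to 0.42). The whole-gene value cannot show a deleted exon, and the knockout label is not checked by it, so each direction given is that of the libraries labelled CRY1 KO. Hepatocyte markers were abundant in all 6 libraries, with Alb between 45886 and 62772 CPM (counts relative to the library size after TMM scaling). The Y-linked genes Ddx3y, Eif2s3y, Kdm5d and Uty were present in all 6. On the first principal component (34.2% of the variance) WT stood between -48.33 (WT 2) and -12.14 (WT 1) and KO between 23.21 and 32.51. On the second (22.6%) WT 1 stood apart (48.80, the others between -32.40 and 4.81).

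The summed level of 12 hepatocyte markers, Hnf4a among them, was 74959 to 81024 CPM in WT and 82623 to 92049.5 CPM in KO, without overlap. The markers did not move together: 7 had positive and 5 negative differences, with a median log2 of 0.030. Alb, by far the most abundant of them, overlapped between the groups. The summed level of 12 Kupffer cell markers was 258.6 to 663 CPM in WT and 238.4 to 241.5 CPM in KO, and 8 of the 12 were lower at an unadjusted p under 0.05 (9.84% of all tested genes), with 0 past the threshold. By DESeq2 6 of the 12 passed, against 10.9% of all genes that it adjusted. WT 1 was the highest library in each of the 12. Clec4f stood at 135.8, 82.5 and 55.4 CPM in WT 1, 2 and 3 and at 49.9, 52.3 and 48.2 CPM in KO 1, 2 and 3. The summed level of 10 lymphocyte markers was 9.10 to 14.5 CPM in WT and 3.96 to 5.12 CPM in KO, where Jchain, a plasma cell gene, fell (log2 -2.45, SE 0.33, edgeR adjusted p = 0.0194). The call of Jchain was lost without KO 1 (0.0522), KO 2 (0.105) or KO 3 (0.115). Sinusoidal endothelial markers (265.6 to 284 against 269 to 327 CPM), stellate and fibroblast markers (205 to 299 against 206 to 248.7 CPM), bile duct markers (46.7 to 94.3 against 73.2 to 78.0 CPM) and red cell markers (654 to 2979 against 581 to 735 CPM) had overlapping ranges. None of the defining markers Clec4f, Stab2, Lrat, Krt19 and Cd79a was at 0 in any library, so the libraries hold RNA of more cell types than the label names. The part of these cell types in the results below was not tested, and in bulk tissue fewer cells of a type and less RNA per cell cannot be told apart.

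Of the 47 conjugation genes that passed the filter on low counts, 1 rose past the threshold and 0 fell. The gene that rose was Ugt3a1, which encodes a UGT of the small UGT3A subfamily, by 1.38-fold. Over all 13816 tested genes edgeR's quasi-likelihood test called 1.7% at an adjusted p of 0.05, 1.06% higher and 0.644% lower in KO, so the share of conjugation genes called, 1 of 47, was near the background. At an unadjusted p under 0.05, 8 of the 47 were higher (10.9% of all genes) and 0 lower (9.84% of all genes). The 8 were Ugt3a1, Ugt3a2, Ugt1a6a, Ugt1a6b, Ugt1a7c, Ugt1a2, Sult1d1 and Gstt2, of which 6 are UGT genes, 4 of them at the UGT1A locus. In 9 of the 47 the groups did not overlap (19.1%, against 27.3% of all tested genes), 7 higher and 2 lower. By DESeq2 5 of 47 conjugation genes passed, a share near the 10.9% of all genes that it adjusted, and by limma 2 of 47, against 2.19%.

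**Figure D1:**
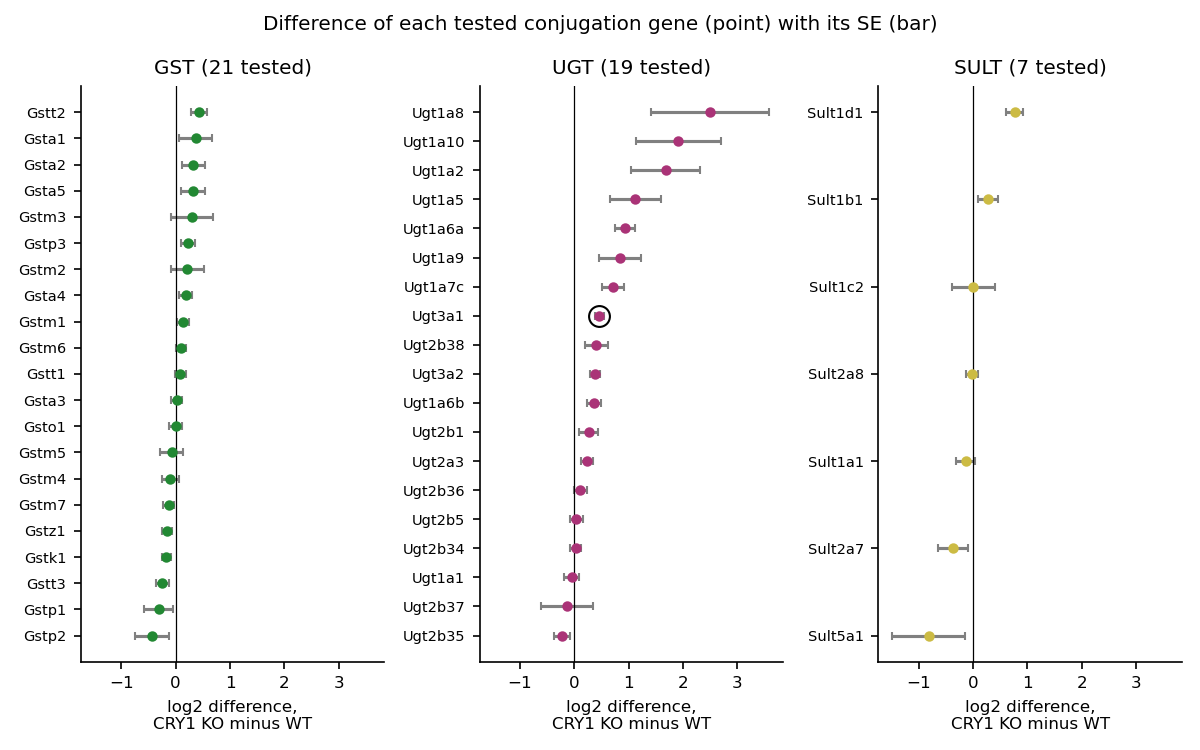
Log2 difference (KO minus WT, x axis) of the 47 tested conjugation genes in 3 panels by family, each point a gene and each bar its SE. Ugt3a1, circled, was the gene past the threshold over all genes, and the UGT panel reaches from -0.22 (Ugt2b35) to 2.50 (Ugt1a8).

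The median log2 difference was 0.090 over 21 tested GST genes, 0.38 over 19 UGT genes and -0.012 over 7 SULT genes, beside -0.019 over all tested genes. Within the UGT genes it was 0.93 over 9 UGT1A rows, which share exons, 0.076 over 8 UGT2 genes and 0.42 over 2 UGT3A genes. Positive differences were found in 13 of 21 GST, 16 of 19 UGT and 3 of 7 SULT genes, and in 47.3% of all tested genes. Groups did not overlap in 2 GST genes (9.52%), 6 UGT genes (31.6%) and 1 SULT gene (14.3%), against 27.3% of all tested genes. Without WT 3 the GST median became -0.039 and that of SULT 0.094, and without KO 3 that of SULT was -0.12. A test of the difference between families was not made, since the genes of a family are not replicates.

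Summed over each family, the GST genes reached 6229, 6519.8 and 5102 CPM in WT 1, 2 and 3 and 6063, 6010.4 and 5034 CPM in KO 1, 2 and 3. The groups overlapped, and the third library of each group was the lowest. The SULT sum was 985, 957 and 1062 CPM in WT and 1004, 1026 and 1032 CPM in KO, also overlapping. The UGT sum was 3969, 4210.4 and 3887 CPM in WT and 4436, 5007 and 4125 CPM in KO, where KO 3 lay below WT 2. The 2 UGT3A genes together stood at 293, 286 and 301 CPM in WT and 374, 413 and 370.3 CPM in KO. All 9 UGT1A genes together stood at 716, 634 and 737 CPM in WT and 848, 820.2 and 949.6 CPM in KO. The 8 other than Ugt1a1, a set formed after the values were seen, stood at 325, 260.2 and 257 CPM in WT and 409, 476 and 529.8 CPM in KO. The UGT3A sum and both UGT1A sums did not overlap between the groups.

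**Figure D2:**
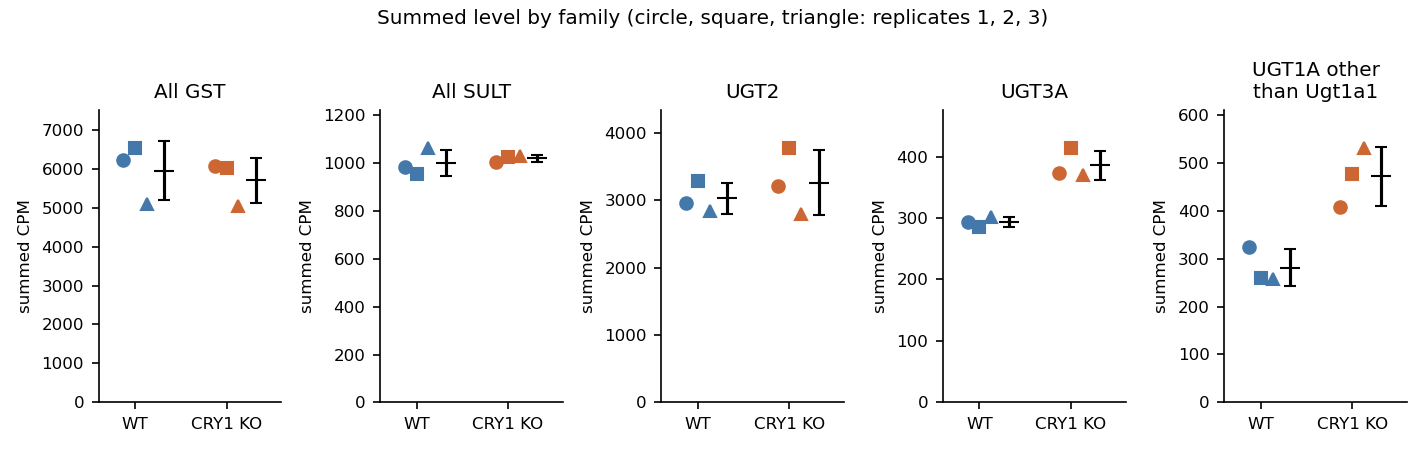
Summed CPM (y axis) of the GST, SULT, UGT2 and UGT3A genes and of the UGT1A genes other than Ugt1a1, with a point for each library and a bar for the mean and SD of each group (n = 3 each). The UGT3A sum and the UGT1A sum without Ugt1a1 are higher in all 3 KO libraries than in all 3 WT libraries. The set without Ugt1a1 was formed after the values were seen. The GST, SULT and UGT2 sums overlap.

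The UGT3A genes lie next to each other on chromosome 15 in RefSeq's GRCm38.p6 annotation. Their proteins use sugar donors other than glucuronic acid. Ugt3a1 stood at 42.1, 47.2 and 48.7 CPM in WT 1, 2 and 3 and at 63.0, 62.2 and 65.0 CPM in KO 1, 2 and 3. The 3 KO values were within 3 CPM of each other and above every WT value. The gene rose from a mean of 46.0 ± 3.44 CPM to one of 63.4 ± 1.44 CPM (SD over n = 3 libraries; difference in log2 0.46, SE 0.086, edgeR adjusted p = 0.0417). Ugt3a2, its neighbour, stood at 251, 238 and 253 CPM in WT and at 311, 351 and 305 CPM in KO. Its groups did not overlap either, and the difference of 0.38 (SE 0.091) did not pass (edgeR adjusted p = 0.0724). By DESeq2 Ugt3a2 passed (adjusted p = 0.00253). Only 1.57% of the 75-base windows of the Ugt3a1 transcript also occurred in Ugt3a2, so the 2 rows rest mostly on different sequence.

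The call of Ugt3a1 depended on the libraries. It held without WT 1 or WT 3 and was lost without WT 2 (edgeR adjusted p = 0.156), KO 1 (0.120), KO 2 (0.158) or KO 3 (0.171), while the log2 difference stayed between 0.40 and 0.51. It was also lost with library totals in place of scaling factors (0.156).

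**Figure D3:**
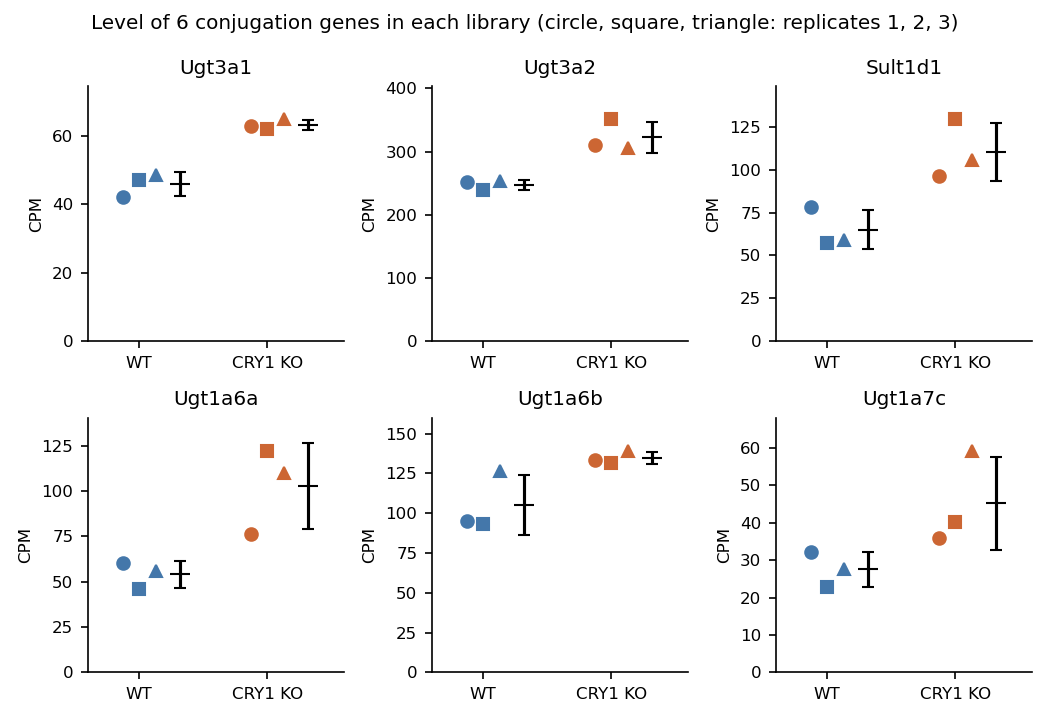
CPM (y axis) of Ugt3a1, Ugt3a2, Sult1d1, Ugt1a6a, Ugt1a6b and Ugt1a7c, the 6 conjugation genes with the smallest unadjusted p, in each WT and KO library, with the mean and SD of each group (n = 3 each). In each panel the lowest KO library lies above the highest WT library, by the least in Ugt1a7c (36.0 against 32.2 CPM) and Ugt1a6b (131.8 against 127 CPM). The Ugt1a6a, Ugt1a6b and Ugt1a7c transcripts share sequence, so these panels are not independent.

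The UGT1A locus on chromosome 1 gave 9 rows. In order along the chromosome the first exons are those of Ugt1a10, Ugt1a9, Ugt1a8, Ugt1a7c, Ugt1a6b, Ugt1a6a, Ugt1a5, Ugt1a2 and Ugt1a1. By edgeR 0 of the 9 rows passed, 8 had positive differences (47.3% of all tested genes) and 4 had groups that did not overlap (27.3% of all). The median log2 difference was 0.93. The rows are not independent: between 57.7% (Ugt1a1) and 100% (Ugt1a6a) of the 75-base windows of their transcripts in GENCODE's M21 annotation also occurred in another gene, most of them in genes of the locus. All windows of Ugt1a6a and 75.4% of those of Ugt1a6b occurred in Ugt1a7c, and 68.9% of those of Ugt1a7c occurred in Ugt1a6a. In that annotation no window sets Ugt1a6a apart from Ugt1a7c, whose longest coding transcript had 3302 bases against 2297 for Ugt1a6a. The windows describe these transcript models and not the first exons alone, and the authors' annotation is not given. The values of these rows are therefore not read as separate differences. How reads of the shared sequence were divided among the rows is not given in the sources used here, and it bears on each value.

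Ugt1a1 encodes the enzyme that glucuronidates bilirubin and was the most abundant row of the locus. It stood at 391, 374 and 480.4 CPM in WT 1, 2 and 3 and at 439, 345 and 420 CPM in KO 1, 2 and 3. The groups overlapped, with a difference of -0.048 in log2 (SE 0.13, edgeR adjusted p = 0.868) and a 95% interval by limma from -0.35 to 0.25. Its share of the summed UGT1A counts was 54.6%, 59.0% and 65.2% in WT and 51.8%, 42.0% and 44.2% in KO. That share was lower in every KO library than in every WT library.

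Ugt1a6a and Ugt1a6b encode enzymes for small planar phenols. Ugt1a6a stood at 60.1, 46.0 and 56.0 CPM in WT and at 76.4, 122.3 and 110.0 CPM in KO. The groups did not overlap, and KO 1 was nearest to WT. The mean was 54.0 ± 7.24 CPM in WT and 102.9 ± 23.7 CPM in KO (SD over n = 3 libraries; difference in log2 0.93, SE 0.18), just short of the threshold (edgeR adjusted p = 0.0515). It passed without WT 1 (0.0432) and without KO 1 (0.0366), and by DESeq2 (adjusted p = 7.30e-05). Ugt1a6b stood at 95.4, 93.1 and 127 CPM in WT and at 133, 131.8 and 139 CPM in KO, a difference of 0.36 in log2 (SE 0.13, edgeR adjusted p = 0.160). WT 3 lay close to the KO values, and without it the difference was 0.52 and passed (edgeR adjusted p = 0.0189).

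Ugt1a7c stood at 32.2, 22.8 and 27.6 CPM in WT and at 36.0, 40.2 and 59.2 CPM in KO (log2 0.71, SE 0.21, edgeR adjusted p = 0.121). The groups did not overlap, and KO 3 was the highest. DESeq2 called it (adjusted p = 0.0128). Ugt1a9 stood at 85.6, 73.4 and 30.2 CPM in WT and at 101.8, 116 and 119 CPM in KO (log2 0.83, SE 0.39, edgeR adjusted p = 0.295). WT 3 was the low library, and without it the difference was 0.50 and passed (edgeR adjusted p = 0.0424).

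The 4 remaining rows of the locus varied more between libraries than the ones above. Ugt1a5 stood at 41.1, 21.1 and 13.2 CPM in WT and at 54.2, 40.0 and 69.5 CPM in KO, so that KO 2 lay just below WT 1. Its log2 difference of 1.12 (SE 0.47) did not pass (edgeR adjusted p = 0.262), and was 1.67 without WT 1 (edgeR adjusted p = 0.0457). Ugt1a2 stood at 5.55, 1.96 and 1.79 CPM in WT and at 4.36, 13.1 and 12.3 CPM in KO (log2 1.68, SE 0.63).

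Ugt1a10, at 3.0, 1.36 and 0.87 CPM in WT and 1.77, 6.96 and 10.9 CPM in KO, was low in KO 1 and high in the other 2 KO libraries. Ugt1a8 stood at 1.93, 0.39 and 0.45 CPM in WT and at 0.83, 5.16 and 9.62 CPM in KO. In Ugt1a2, Ugt1a8 and Ugt1a10 KO 1 lay below WT 1 and the other 2 KO libraries lay above all WT libraries. The differences were large with large errors, 1.91 (SE 0.79) for Ugt1a10 and 2.50 (SE 1.09) for Ugt1a8, and neither passed (edgeR adjusted p = 0.253 and 0.279).

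**Figure D4:**
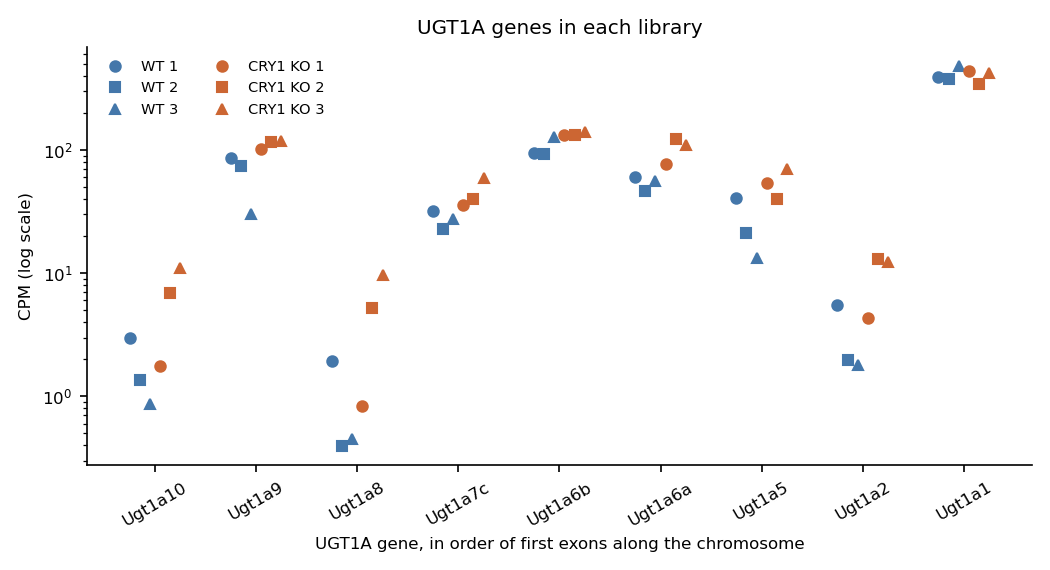
CPM on a log scale (y axis) of the 9 UGT1A genes, in the order of their first exons (x axis), with a point for each of the 6 libraries. Ugt1a1 overlaps between the groups at 345 to 480.4 CPM, Ugt1a6a, Ugt1a6b, Ugt1a7c and Ugt1a9 do not overlap, and Ugt1a8 spans 0.39 to 9.62 CPM.

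The UGT2 genes, which lie together on chromosome 5 and encode enzymes for steroids, bile acids and drugs, held the most abundant UGT transcripts. Per kilobase of the longest coding transcript, WT levels were 487 CPM for Ugt2b5, 310.4 for Ugt2b36 and 234 for Ugt2b1, against 187 for Ugt1a1. None of the 8 tested UGT2 genes passed, none had groups without overlap, and their median log2 difference was 0.076. Ugt2b5 stood at 881, 1011 and 822 CPM in WT and at 929, 1039.9 and 819.9 CPM in KO, a difference of 0.039 in log2 (SE 0.12, 95% interval by limma -0.24 to 0.32). Ugt2b36 (0.11, SE 0.12) and Ugt2b34 (0.025, SE 0.10) had similarly narrow errors. Ugt2b1 stood at 605, 628 and 571 CPM in WT and at 684, 926 and 554 CPM in KO. In that gene KO 2 was the highest and KO 3 the lowest of all 6 libraries.

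Ugt2b38 followed the same order among the KO libraries as Ugt2b1, with 119, 177 and 99.96 CPM against 103, 111 and 85.3 CPM in WT (log2 0.40, SE 0.21). Of its windows 28.0% were shared, nearly all with Ugt2b5. The lowest difference of the family was that of Ugt2b35 (-0.22, SE 0.15), and Ugt2b37 (-0.14, SE 0.48) was low in level at 2.71 to 8.63 CPM. Ugt2a3, at 178, 214 and 197 CPM in WT and 208, 258 and 225 CPM in KO, had a difference of 0.23 in log2 (SE 0.11, edgeR adjusted p = 0.286).

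Among the sulphotransferases Sult1d1, whose product sulphates catecholamines and other phenols, stood furthest from WT. It was at 78.2, 57.5 and 59.2 CPM in WT 1, 2 and 3 and at 96.2, 129.5 and 105.5 CPM in KO 1, 2 and 3. The groups did not overlap. The means were 64.9 ± 11.5 CPM in WT and 110.4 ± 17.2 CPM in KO (SD over n = 3 libraries; 1.70-fold, difference in log2 0.77, SE 0.15), with edgeR adjusted p = 0.0511. The call turned on settings: it passed by DESeq2 (adjusted p = 0.000297), by limma (0.0428), with library totals (0.0382), with either other filter on low counts (0.0482 and 0.0483) and without WT 1 (0.0104), and it failed in the other 7 alternatives, up to 0.190. The transcript shared 0 of its windows with another gene.

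Sult1b1, a neighbour of Sult1d1 on chromosome 5, which encodes an enzyme for thyroid hormones and phenols, stood at 16.2, 23.0 and 27.8 CPM in WT and at 28.4, 26.9 and 25.5 CPM in KO (log2 0.27, SE 0.18). The groups overlapped through WT 3. Sult1e1, the oestrogen sulphotransferase gene, had estimated counts of 145, 0 and 0 in WT and 0, 50 and 0 in KO and was not tested. It was at 0 in 4 of the 6 libraries.

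Sult2a8, a bile acid sulphotransferase gene, was the most abundant of the family, with 323 CPM per kilobase in WT. It stood at 616, 671 and 789 CPM in WT and at 678, 713 and 669 CPM in KO, a difference of -0.012 in log2 (SE 0.11, 95% interval by limma -0.26 to 0.24). Sult1a1, the main phenol sulphotransferase gene, stood at 244, 192.5 and 174 CPM in WT and 188, 146 and 223 CPM in KO (-0.14, SE 0.18). Sult2a7 stood at 0.98 to 1.10 CPM in WT and 0.66 to 0.99 CPM in KO (-0.36, SE 0.28), and Sult1c2 had a difference of 0.0074 in log2 (SE 0.39).

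In Sult5a1 a single library carried the level. It stood at 25.5 CPM in WT 1 and at 8.35 and 5.58 CPM in WT 2 and 3, against 10.99, 6.71 and 4.73 CPM in KO. The log2 difference was -0.81 (SE 0.67, edgeR adjusted p = 0.545) and turned to 0.10 without WT 1. Sult6b1 was at 0 in WT 1 and in the 3 KO libraries, with 14 and 5 counts in WT 2 and 3, and was not tested.

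The GST genes were the most abundant of the 3 families. Per kilobase, WT levels were 2037 CPM for Gstp1, 1062 for Gstm1 and 848 for Gsta3. By edgeR 0 of the 21 tested GST genes passed. At an unadjusted p under 0.05 there was 1, Gstt2, against 20.7% of all tested genes in either direction. By DESeq2 and by limma the count was also 0. Differences were small, from -0.43 (Gstp2) to 0.43 (Gstt2), with a median size of 0.18 against 0.21 over all tested genes.

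Gsta3, the main alpha-class gene of adult liver, stood at 1349, 1228 and 1129 CPM in WT and at 1263, 1330.5 and 1164 CPM in KO. The groups overlapped, with a difference of 0.020 in log2 (SE 0.11, 95% interval by limma -0.22 to 0.26). The other alpha-class genes Gsta1 (0.37, SE 0.30), Gsta2 (0.33, SE 0.21), Gsta5 (0.32, SE 0.23) and Gsta4 (0.18, SE 0.13), which encodes an enzyme for the lipid aldehyde hydroxynonenal, also had positive differences. Each of them overlapped between the groups, and 86.3% of the windows of Gsta1 and 46.9% of those of Gsta2 occurred in other genes.

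Gstm1, the most abundant mu-class gene, stood at 1271, 1464 and 1371 CPM in WT and 1612, 1497.5 and 1408 CPM in KO (0.14, SE 0.10, 95% interval by limma -0.10 to 0.37). In Gstm3 and Gstm2 the WT libraries themselves spread widely. Gstm3 stood at 100.2, 75.7 and 34.4 CPM in WT, while the KO libraries lay between 79.4 and 98.3 CPM. Gstm2 stood at 82.9, 58.9 and 34.2 CPM in WT, while the KO libraries lay between 65.7 and 72.8 CPM. In both WT 3 was the lowest library, and without it the log2 differences of 0.31 and 0.22 became -0.018 and -0.054.

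The pi-class genes Gstp1 and Gstp2 are adjacent near-copies, and 57.7% of the windows of Gstp1 occurred in Gstp2. Gstp1 stood at 1875, 2005 and 1137 CPM in WT and 1504, 1594 and 959.5 CPM in KO. Gstp2 had the same pattern, with 294, 334 and 176 CPM in WT and 222, 241 and 134 CPM in KO. The third library of each group was the lowest in both genes, and the groups overlapped. The log2 differences were -0.31 (SE 0.27) and -0.43 (SE 0.31). Gstp3, with 0 shared windows, did not follow them and had a difference of 0.22 (SE 0.13).

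Among the theta class Gstt2 stood at 39.9, 48.7 and 35.3 CPM in WT and at 57.2, 46.1 and 63.1 CPM in KO, a difference of 0.43 in log2 (SE 0.15, edgeR adjusted p = 0.164). KO 2 lay within the WT range. Gstt3 had a difference of -0.24 (SE 0.13), and Gstt1, which lies between these 2 on chromosome 10, of 0.090 (SE 0.096). The 2 GST genes whose groups did not overlap were both slightly lower in KO. Gstk1, the mitochondrial and peroxisomal kappa-class gene, stood at 80.9, 80.1 and 73.6 CPM in WT and 70.6, 72.3 and 65.9 CPM in KO (-0.17, SE 0.0835, edgeR adjusted p = 0.293). Gstz1, an enzyme of tyrosine breakdown, stood at 568, 626 and 615 CPM in WT and 565, 541 and 511 CPM in KO (-0.16, SE 0.0905, edgeR adjusted p = 0.341). Gsto1, the dehydroascorbate reductase gene, had a difference of 0.0036 (SE 0.12), and Gsto2, with 0 to 15 counts, was not tested.

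The enzymes that supply the donor molecules were listed apart from the families. Of 9 tested genes of UDP-glucuronate supply 0 passed the edgeR test. Ugp2, which makes UDP-glucose, stood at 244, 261 and 298 CPM in WT and at 324, 370.2 and 407.5 CPM in KO (log2 0.46, SE 0.12, edgeR adjusted p = 0.0845), and passed without WT 3 (0.0412) and by DESeq2 (adjusted p = 0.00829). Ugdh, which oxidises UDP-glucose to UDP-glucuronate, had a difference of 0.020 (SE 0.17). Slc35d1, a carrier of nucleotide sugars into the endoplasmic reticulum, had a difference of -0.29 (SE 0.11).

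Of 11 tested genes of the supply of the sulphate donor PAPS 0 passed. Papss2, the PAPS synthase gene of liver, stood at 147, 119.3 and 119.1 CPM in WT and at 210.3, 169 and 195 CPM in KO. Its groups did not overlap (log2 0.57, SE 0.12, edgeR adjusted p = 0.0549), and it passed without WT 1 (0.0169), by limma (0.0490) and by DESeq2 (0.000951). The lysosomal sulphatase gene Arsb had a difference of 0.50 (SE 0.16) and passed by DESeq2 (adjusted p = 0.0440). Bpnt2, a phosphatase of the Golgi, had a difference of 0.29 (SE 0.12). Of 19 tested genes of glutathione synthesis and recycling 1 fell (0.644% of all tested genes), Ggt6, a member of the γ-glutamyltransferase family. It stood at 14.8, 20.1 and 18.0 CPM in WT and 11.1, 10.7 and 8.44 CPM in KO (log2 -0.81, SE 0.15, edgeR adjusted p = 0.0410). That call was lost without WT 2 (0.168), KO 1 (0.101), KO 2 (0.156) or KO 3 (0.171), and with library totals (0.0559). Gclc, the rate-limiting enzyme gene of glutathione synthesis, had a difference of 0.020 (SE 0.33) with 146 to 380.4 CPM in WT. Cbs, of the transsulphuration pathway, had a difference of -0.36 (SE 0.093) and passed by DESeq2 (adjusted p = 0.00599).

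Of 12 tested membrane-bound glutathione transferases and relatives 0 passed, and Mgst1, the abundant microsomal gene, had a difference of -0.064 (SE 0.13). Of 21 tested enzymes of methylation, acetylation and other conjugations 0 passed, with Hnmt (0.42, SE 0.096), the histamine methyltransferase gene, and Acsm1 (-0.37, SE 0.092), a medium-chain acyl-CoA synthetase gene, the nearest to it. Of 16 tested transporters of conjugates 0 passed. Slco1a1 and Slco2b1, uptake carriers of organic anions, had differences of 0.51 (SE 0.14) and 0.35 (SE 0.10), and Slc22a7, another such carrier, of -0.65 (SE 0.19). These counts are by edgeR. By DESeq2, which called 10.9% of all genes that it adjusted, 1, 2 and 3 genes of these lists passed, in the order given.

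Of 24 tested genes of the regulator list 5 rose and 0 fell (1.06% and 0.644% of all tested genes). They were 4 transcription factor genes and Por, an enzyme gene that stands on this list and on that of the CAR and PXR targets. Nfe2l2, which encodes NRF2, stood at 45.7, 40.9 and 49.0 CPM in WT and 77.6, 70.1 and 63.5 CPM in KO. The groups did not overlap, and the gene rose 1.56-fold (log2 0.64, SE 0.11, edgeR adjusted p = 0.0347). The others were Hnf4a (0.73, SE 0.13), the PAR bZIP genes Tef (1.53, SE 0.14) and Hlf (1.16, SE 0.20), and Por (0.82, SE 0.16), the electron donor of P450 enzymes. Nr1i3, which encodes CAR, stood at 71.6, 99.6 and 154 CPM in WT and at 273, 237 and 310.5 CPM in KO, and did not pass (log2 1.33, SE 0.28, edgeR adjusted p = 0.0715). Nr1i2, which encodes PXR (0.47, SE 0.13), and Nr1h4, the bile acid receptor gene (0.53, SE 0.11), also had groups without overlap and did not pass by edgeR. Keap1, whose product holds NRF2 in check, had a difference of -0.23 (SE 0.090). By DESeq2 14 of the 24 genes of this list passed, against 10.9% of all genes that it adjusted. In 13 of the 24 the groups did not overlap (54.2%, against 27.3% of all tested genes).

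Tef kept its call in all 13 alternatives, and Dbp, the third PAR bZIP gene, stood at 10.8, 23.1 and 31.8 CPM in WT and 80.5, 80.8 and 124 CPM in KO without passing (2.12, SE 0.44, edgeR adjusted p = 0.0837). Nfe2l2 lost it without WT 2 (edgeR adjusted p = 0.145), KO 1 (0.101), KO 2 (0.145) or KO 3 (0.0925), and Hnf4a, Hlf and Por lost it without the same 4 libraries, with adjusted p between 0.0890 and 0.185. Por lost it also without WT 3 (0.0607) and with RLE scaling (0.0503), and Nfe2l2 (0.0630) and Hlf (0.0924) with library totals.

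**Figure D5:**
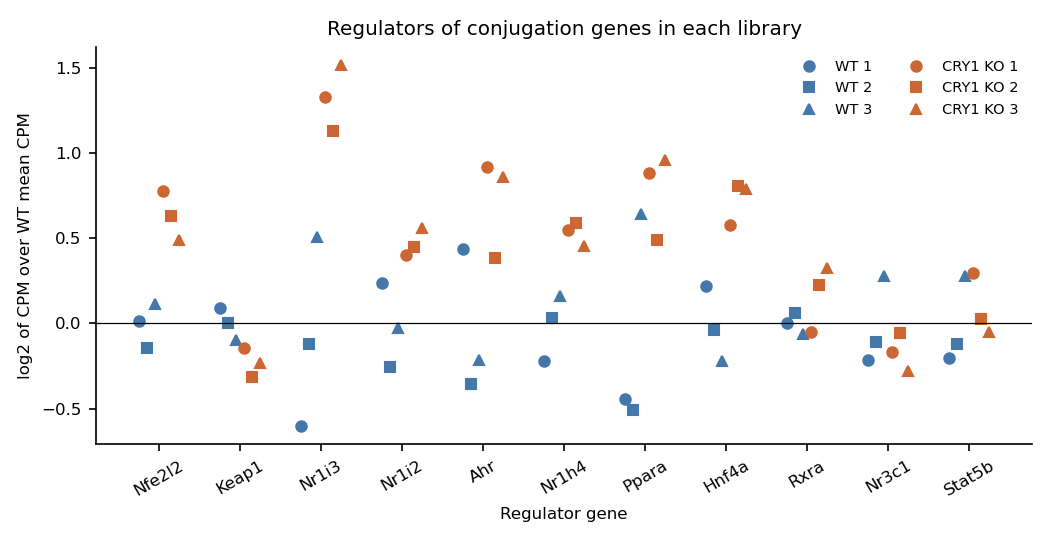
Level of 11 regulator genes in each library as log2 of CPM over the WT mean (y axis). Nfe2l2, Nr1i3, Nr1i2, Nr1h4 and Hnf4a are higher in all 3 KO libraries than in all 3 WT libraries, Keap1 is lower, and Ahr, Ppara, Rxra, Nr3c1 and Stat5b overlap. Of all tested genes 14.6% were higher and 12.7% lower without overlap. The 11 genes are part of the regulator list of 24, and Tef, Hlf, Dbp and Por are not shown.

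Targets of these regulators outside the 3 families gave a reference for their members. Of 19 tested NRF2 targets 1 rose (1.06% of all tested genes), Me1, the malic enzyme gene (0.67, SE 0.13), and the median was -0.058. Nqo1 (-0.46, SE 0.26) and Srxn1 (-0.31, SE 0.11), a standard quinone reductase target and a sulphiredoxin gene, had negative differences. Of 16 tested CAR and PXR targets 4 rose (1.06% of all tested genes), Cyp3a11 (1.64, SE 0.15), Cyp3a44 (1.69, SE 0.14), Ces2a (0.52, SE 0.090) and Por, already counted above, and the median was 0.54. Of 5 tested AHR targets 0 passed by edgeR and 2 by DESeq2, with Tiparp at 0.71 (SE 0.16), Cyp1a2 at -0.26 (SE 0.086) and a median of -0.16. Of these called genes Cyp3a11 and Cyp3a44 kept their call without each library, while Me1 and Ces2a lost it without WT 2 or any KO library, with edgeR adjusted p between 0.112 and 0.185, and with library totals (0.0729 and 0.0793). By DESeq2 2 NRF2 targets and 7 CAR and PXR targets passed, against 10.9% of all genes that it adjusted.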

How the data were processed

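Liver RNA libraries of WT and CRY1 KO mice (n = 3 each) were grouped by the sample titles. The deposited table holds whole numbers that were taken as estimated counts per gene: in every library the value 3 was more frequent than 1, 2 or 4, so 1 unit is not 1 fragment. Tools that the authors name, per the submitters' processing notes, are StringTie 2.1.7, HISAT2 2.2.1, limma 3.42.2 and Trim Galore 0.6.7, with the build GRCm39. The step that made the counts, the annotation and any use of strand: not given in the sources used here. No gene of the table summed to less than 11.

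The filter was filterByExpr of edgeR 4.0.16 (minimum count 10 and minimum total 15), which left 13816 of 15092 genes. Groups were compared by edgeR's robust quasi-likelihood test after TMM scaling, and p-values were adjusted over all of these genes (Benjamini-Hochberg, threshold 0.05). SE is the log2 difference divided by the square root of F. Intervals are 95% intervals from limma 3.58.1 on log2 CPM (prior count 2). The alternatives were DESeq2 1.42.0, limma, other scalings and filters, the replicate block and each library left out; for genes outside the families they were chosen after seeing the data. The fits were also run on simulated counts with known changes, and the outcome is not reported here. These counts were drawn for each gene separately, without reads shared between genes, so they do not test the UGT1A rows. Shared 75-base windows and lengths came from the longest coding transcript of each gene in GENCODE's M21 annotation (49 of 50 matched), and promoters from RefSeq (44 of 50 matched). Both are on GRCm38, another build than the authors', so locations serve as gene order only.

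Genes named by rule were those past the threshold, the 6 smallest p and the 4 highest levels of each family, members with 1 library over 3 times the median of the others, untested members, and up to 3 genes of each pathway list. Other genes, the promoters, the motifs and the window length were chosen after values were seen. The members and lists were chosen with earlier results of these data known.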

Additional observations from a re-analysis of the deposited data

How the results depend on the processing

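The number of genes called over the whole table was 235. It was 1322 by DESeq2, 113 with library totals in place of scaling factors, 94 with the replicate number as a block, and 17 to 844 with a library left out. Conjugation genes called were 1, against 5 by DESeq2 (4 UGT and 1 SULT), which called 10.9% of all genes that it adjusted. The number was 2 by limma, 2 without a filter and 2 with a count of at least 50 in at least 3 libraries. Of each 2, 1 was the SULT gene Sult1d1. With library totals 1 was called, 0 UGT and 1 SULT. With the replicate block it was 0, 0 of them UGT, and with a library left out 0 to 4 (0 to 3 UGT, 0 to 1 SULT). The cause of these moves was not tested. The replicate numbers did not pair the samples (correlations of same-numbered deviations -0.0658, -0.0143 and 0.0697), and with the block Ugt3a1 (adjusted p = 0.0823), Nfe2l2 (0.0791), Hnf4a (0.0843), Por (0.0910), Ggt6 (0.0823) and Ces2a (0.0796) did not pass, while Tef, Hlf, Me1, Jchain, Cyp3a11 and Cyp3a44 did.

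With a library left out the SULT median ran from -0.12 to 0.094 and Cry1 from -0.19 to 0.088. Among genes whose sign turned, the ranges were -0.039 to 0.088 for Gsta3, -0.054 to 0.55 for Gstm2, -0.018 to 0.66 for Gstm3, -0.24 to 0.026 for Gstm4, -0.28 to 0.082 for Gstm5, -0.091 to 0.14 for Gsto1, -0.28 to 0.016 for Sult1a1, -0.34 to 0.46 for Sult1c2, -0.089 to 0.094 for Sult2a8, -1.20 to 0.10 for Sult5a1, -0.12 to 0.072 for Ugt1a1, -0.065 to 0.10 for Ugt2b34, -0.75 to 0.17 for Ugt2b37 and -0.050 to 0.13 for Ugt2b5. With library totals Gsto1 was at -0.014, Sult1c2 at -0.040 and Ugt2b34 at -0.0062. The UGT median stayed between 0.32 and 0.43 in all 13 alternatives, and Ugt3a1 passed in 7 of the 13.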
